A study of Mus musculus with 12 samples.

Results

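Mouse genes of interferon-γ signalling were followed on Affymetrix arrays of lung and liver: the receptor chains Ifngr1 and Ifngr2, the receptor kinase Jak2, the transcription factors Irf1 and Irf8, the feedback inhibitor Socs1, the checkpoint ligand Cd274 (PD-L1) and the chemokines Cxcl9 and Cxcl10. The 9 genes, of 13710 on the arrays with a probe set of their own, were chosen by their place in this pathway, with earlier diet results of these same arrays known, so that their diet differences are a description and support nothing by themselves. The 13 probe sets that the platform annotation gives to 1 of these genes alone were all taken, out of 29467 in the table. No probe set of these genes was shared with another gene, and 1 of the 13, a second probe set of Cxcl9 (1456907_at), had no value on any of the 12 arrays.

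The 4 groups were 0.1 Se lung, 0 Se lung, 0.1 Se liver and 0 Se liver, with 3 arrays each, given in the labels as biological replicates. All animals were wild-type FVB/N males that received torula yeast diets poor in selenium from weaning, at 3 weeks of age, and stayed on them for 6 weeks. The diet of the 0.1 Se mice held 0.1 ppm added selenium as sodium selenite, and that of the 0 Se mice held none. Whole tissue was used, of males of a single inbred strain, and the arrays came from 3 mice per diet, but the labels do not say which lung and liver arrays share a mouse.

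Interferon-γ is a cytokine made mainly by T cells and NK cells. It binds a receptor of IFNGR1 and IFNGR2 chains, on which the kinases JAK1 and JAK2 start the signal. The signal reaches gamma-activated sites (GAS) in promoters such as that of Irf1, and the IRF proteins made in turn bind interferon-stimulated response elements (ISRE). Among the induced genes are Cd274, whose product PD-L1 restrains T cells through PD-1, Cxcl9 and Cxcl10, whose products draw T and NK cells that carry the receptor CXCR3, and Socs1, whose product blocks the JAK kinases. In liver and lung, macrophages, endothelial cells and epithelial cells can all respond to the cytokine.

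The promoters of 5 of these genes are shown because they are the transcription factors and targets whose values are followed most closely here. Each is the stretch of 250 bases before a RefSeq start site (build GRCm38.p6), written 5′ to 3′ on the gene's own strand, and capitals mark a GAS (TTCNNNGAA) or an ISRE core (GAAA and GAAA parted by any 2 bases). Both strands were searched, and the motifs may overlap each other.
Irf1 promoter (chr11:53769764-53770013, plus strand): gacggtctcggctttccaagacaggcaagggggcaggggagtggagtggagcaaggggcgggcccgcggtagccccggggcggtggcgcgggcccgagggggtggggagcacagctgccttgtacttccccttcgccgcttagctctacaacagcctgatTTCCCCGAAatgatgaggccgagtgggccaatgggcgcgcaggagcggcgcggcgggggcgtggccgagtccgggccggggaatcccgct
Irf8 promoter (chr8:120736108-120736357, plus strand): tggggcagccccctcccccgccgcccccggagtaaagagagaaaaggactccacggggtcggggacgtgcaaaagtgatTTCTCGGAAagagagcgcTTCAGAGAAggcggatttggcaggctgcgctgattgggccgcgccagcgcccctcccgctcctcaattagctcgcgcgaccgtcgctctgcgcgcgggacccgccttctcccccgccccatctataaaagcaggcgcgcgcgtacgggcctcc
Cd274 promoter (chr19:29367188-29367437, plus strand): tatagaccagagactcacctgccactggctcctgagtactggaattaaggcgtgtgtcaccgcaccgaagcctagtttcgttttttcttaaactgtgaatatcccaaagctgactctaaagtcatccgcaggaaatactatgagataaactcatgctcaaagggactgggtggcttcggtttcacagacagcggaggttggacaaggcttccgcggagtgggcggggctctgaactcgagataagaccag
Cxcl9 promoter (chr5:92328080-92328329, minus strand): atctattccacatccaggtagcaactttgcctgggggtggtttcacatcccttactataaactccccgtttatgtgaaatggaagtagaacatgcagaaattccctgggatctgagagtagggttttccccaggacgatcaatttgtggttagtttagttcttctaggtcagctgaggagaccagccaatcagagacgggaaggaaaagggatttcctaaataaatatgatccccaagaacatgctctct
Cxcl10 promoter (chr5:92348890-92349139, minus strand): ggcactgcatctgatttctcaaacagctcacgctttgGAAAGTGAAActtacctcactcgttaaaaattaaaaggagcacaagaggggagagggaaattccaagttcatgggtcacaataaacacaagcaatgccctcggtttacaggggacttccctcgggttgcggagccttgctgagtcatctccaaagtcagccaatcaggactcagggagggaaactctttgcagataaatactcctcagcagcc

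Promoters of 9 of the 9 genes were found, with 11 start sites in all, since Irf1 and Irf8 have a pair each. A GAS stood in the window of Irf1 (start 1), from -90 to -82 before the start site. The window of Irf8 (start 1) held 2 GAS, from -171 to -163 and from -153 to -145. An ISRE core stood in the window of Cxcl10 from -213 to -204, and Socs1 had 2 overlapping ones from -83 to -74 and from -77 to -68. Neither set of letters was in the windows of Cd274, Cxcl9, Ifngr1, Ifngr2 or Jak2, or at the second start sites of Irf1 and Irf8. Of 32851 promoter windows of the same length, 7.02% held a GAS, 2.98% an ISRE core and 9.66% either motif. A match is a description of the sequence and does not show that a factor binds there.

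**Figure D1:**
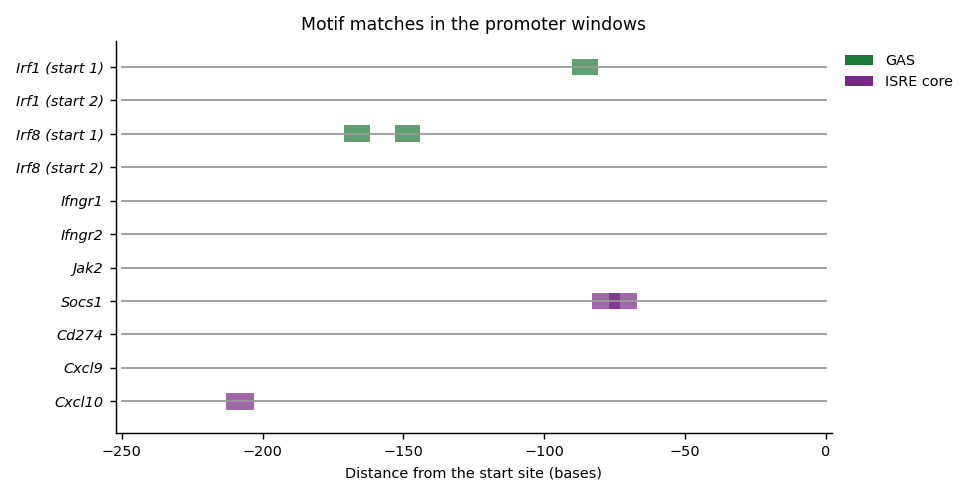
Positions of GAS (green) and ISRE core (purple) matches in the windows of the 9 genes, by distance in bases from the start site. Irf1 and Irf8 show GAS matches at their first start site, Socs1 and Cxcl10 show ISRE cores, and the other 7 windows are empty.

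Values are log2 of the signal of a probe set, computed by the MAS5 algorithm on each array, so that 1 unit is a 2-fold difference. The lowest value of the table is 6.64 (a signal of 100), and a blank, whether from an absent call or from a signal below that limit, is a missing value here. Each lung array had values for 22197 to 22718 probe sets, and each liver array for 17235 to 17923. The labels were checked against defining markers: Ager, Aqp5, Scgb1a1, Sftpa1 and Sftpb had values on 6 lung arrays and on 0 liver arrays, and Apoa1, Apob, Cyp3a11, Fgb, Tat and Ttr on 0 lung arrays and on 6 liver arrays. Of the remaining markers on these lists, Sftpc had values on 6 lung arrays and 1 liver array, Abca3 and Hopx on 6 arrays of each tissue, Alb on 3 lung arrays and 6 liver arrays, and Lamp3 is not analysed here. Since signals of different probe sets depend on their sequences, levels are compared here within a probe set only. In these whole-tissue samples fewer cells of a type and less RNA per cell cannot be told apart.

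**Figure D2:**
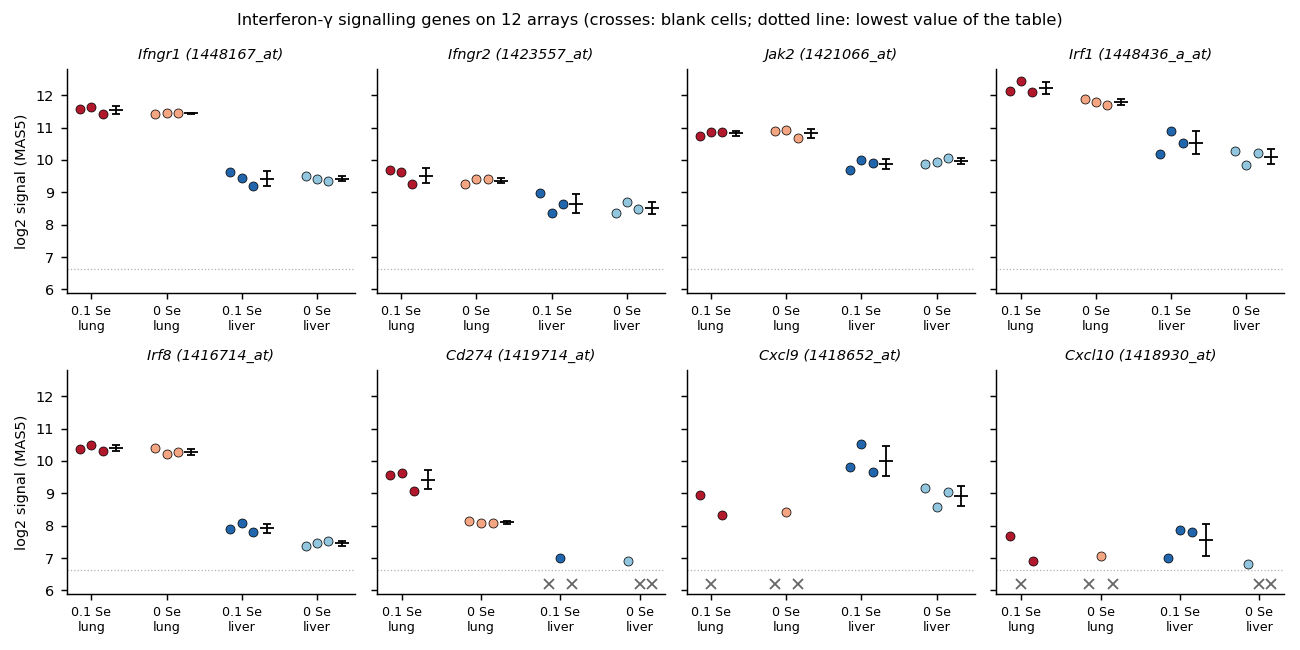
Log2 MAS5 signal on each of the 12 arrays for 8 of the genes, each by its probe set with the most values and the highest mean, with the group mean and SD beside groups of 3 values and crosses for blanks. In lung the Cd274 values under 0.1 Se (9.08 to 9.63) lie above those under 0 Se (8.07 to 8.15), in liver the same holds for Cxcl9 (9.65 to 10.51 against 8.58 to 9.16), and the receptor chains and Jak2 differ mainly by tissue.

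The diet differences of both receptor chains and of the kinase lay within 0.2 of 0, on arrays that overlapped between the diets, and their signals were higher in lung. Ifngr1 (1448167_at), the ligand-binding chain, had 11.59, 11.63 and 11.42 in 0.1 Se lung, against 11.43, 11.45 and 11.45 in 0 Se lung. In liver it had 9.64, 9.44 and 9.19 under 0.1 Se, against 9.50, 9.40 and 9.35 under 0 Se. The diets overlapped in liver and in lung, and each lung array stood above each liver array. The diet differences of Ifngr1 were 0.10 ± 0.08 in lung and 0.01 ± 0.15 in liver (0.1 Se minus 0 Se, log2, SE of limma).

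Ifngr2 (1423557_at), the signalling chain that brings in JAK2, had 9.68, 9.62 and 9.26 in 0.1 Se lung, against 9.27, 9.40 and 9.41 in 0 Se lung. It had 8.97, 8.36 and 8.63 in 0.1 Se liver, against 8.35, 8.71 and 8.50 in 0 Se liver. These groups overlapped too, and the differences were 0.16 ± 0.13 in lung and 0.13 ± 0.20 in liver. A second probe set of Ifngr2 (1423558_at) had values of 8.19 and 8.05 on 2 arrays of 0.1 Se lung and of 8.02 on 1 array of 0 Se lung, and none in liver, so it was not tested.

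Jak2 (1421066_at), the kinase bound to IFNGR2, had 10.74, 10.86 and 10.86 in 0.1 Se lung, against 10.89, 10.93 and 10.67 in 0 Se lung. Its liver values were 9.69, 9.99 and 9.91 under 0.1 Se, against 9.88, 9.95 and 10.07 under 0 Se. Diet differences were -0.01 ± 0.10 in lung and -0.10 ± 0.13 in liver, on overlapping arrays. The other probe set of Jak2 (1421065_at) gave 0.11 ± 0.13 in lung and, on 5 arrays, 0.10 ± 0.20 in liver, where 1 array of 0.1 Se was blank. The 2 probe sets of Jak2 thus had differences of opposite sign in each tissue, none larger than its SE.

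The transcription factors had higher mean signals under 0.1 Se in both tissues. Irf8 (1416714_at) had its larger difference in liver, but the difference between the tissues did not pass its test (limma adjusted p = 0.814). Irf1 (1448436_a_at), an early target of the cytokine and an activator of antigen presentation genes, had 12.13, 12.43 and 12.09 in 0.1 Se lung, against 11.89, 11.80 and 11.69 in 0 Se lung. The lung arrays of the diets did not overlap. In liver it had 10.20, 10.89 and 10.52 under 0.1 Se, against 10.28, 9.83 and 10.21 under 0 Se, and here the lowest array of 0.1 Se lay under the highest of 0 Se. Group means of Irf1 were 12.22 ± 0.19 in 0.1 Se lung and 11.79 ± 0.10 in 0 Se lung, and 10.54 ± 0.35 in 0.1 Se liver and 10.11 ± 0.24 in 0 Se liver (SD, n = 3 each). The diet differences were 0.42 ± 0.11 in lung (1.34-fold) and 0.43 ± 0.18 in liver (1.35-fold). The liver value dropped to 0.26 when the second 0.1 Se array was left out, and to 0.30 when the second 0 Se array was.

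Irf8 (1416714_at), a factor of macrophage and dendritic cell development that interferon-γ induces in macrophages, had 7.89, 8.08 and 7.81 in 0.1 Se liver, against 7.38, 7.45 and 7.53 in 0 Se liver. All 3 arrays of 0.1 Se liver were above all 3 of 0 Se liver. The difference was 0.47 ± 0.18 (1.38-fold, limma adjusted p = 0.668) and did not pass. Its liver signals were low, with 6.64 the lowest value of the table. In lung it had 10.38, 10.50 and 10.32 under 0.1 Se, against 10.39, 10.20 and 10.27 under 0 Se, which overlapped, with a difference of 0.11 ± 0.10. A second probe set of Irf8 (1448452_at) was blank on the 6 liver arrays. In lung it had 9.57, 9.21 and 9.27 under 0.1 Se, against 9.41, 8.73 and 9.06 under 0 Se, also overlapping, with a difference of 0.29 ± 0.18. With single lung arrays left out this value ran from 0.12 (without the second 0 Se array) to 0.45 (without the first 0 Se array), and it was 0.17 without the first 0.1 Se array.

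Cd274 in lung and Cxcl9 in liver had the largest diet differences of the tested probe sets of the 9 genes. Cd274 (1419714_at) had 9.56, 9.63 and 9.08 in 0.1 Se lung, against 8.15, 8.07 and 8.09 in 0 Se lung. The diets were apart, and the 0.1 Se arrays were also the more spread, with means of 9.43 ± 0.30 under 0.1 Se and 8.10 ± 0.04 under 0 Se (SD, n = 3 each). The difference was 1.32 ± 0.16, or 2.5-fold. In liver Cd274 was near the lowest values of the table, with 7.01 on 1 array of 0.1 Se and 6.91 on 1 array of 0 Se, and blanks on the other 4, so that no diet comparison was possible there.

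Cxcl9 (1418652_at) had 9.81, 10.51 and 9.65 in 0.1 Se liver, against 9.16, 8.58 and 9.04 in 0 Se liver. The diets did not overlap, and the means were 9.99 ± 0.46 under 0.1 Se and 8.93 ± 0.30 under 0 Se (SD, n = 3 each). The difference was 1.06 ± 0.23, or 2.09-fold, and 0.80 without 0.1 Se liver replicate 2, the highest array. In lung Cxcl9 had 8.94 and 8.32 on 2 arrays of 0.1 Se and 8.41 on 1 array of 0 Se, with the other arrays blank, and was not tested.

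Cxcl10 (1418930_at), the second CXCR3 ligand, was listed on more 0.1 Se than 0 Se arrays in each tissue, at low signals. It had 6.99, 7.87 and 7.81 in 0.1 Se liver, against 6.81 on 1 array of 0 Se liver. In lung it had 7.69 and 6.90 on 2 arrays of 0.1 Se, against 7.06 on 1 array of 0 Se. Too few 0 Se values were listed for a test in either tissue, and no fold is given against blanks. Socs1 (1450446_a_at) had 1 value in all, 6.71 on an array of 0 Se liver, so that the feedback inhibitor could be followed in neither tissue.

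**Figure D3:**
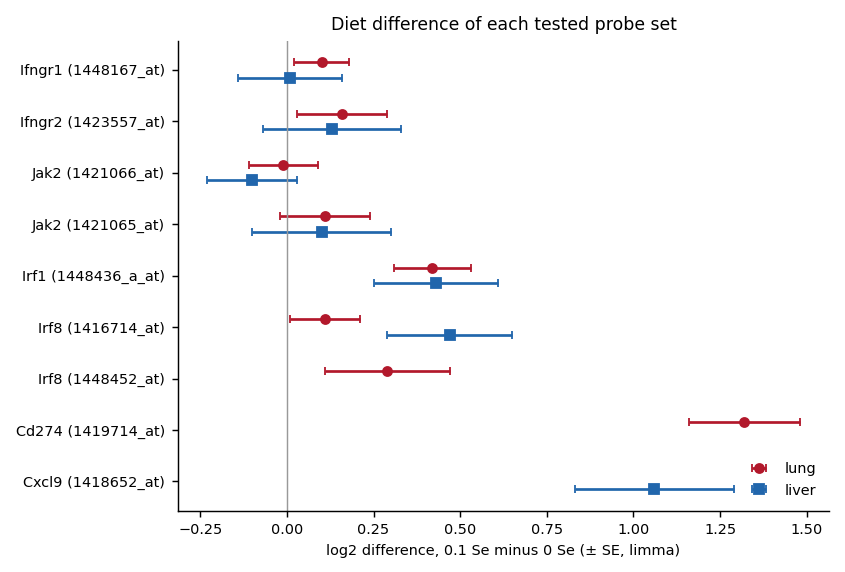
Log2 difference of 0.1 Se minus 0 Se with the SE of limma, for each probe set of the 9 genes that could be tested, in lung (red circles) and liver (blue squares). Cd274 in lung (1.32) and Cxcl9 in liver (1.06) stand farthest to the right, Irf1 lies near 0.4 in both tissues, and the receptor chains and Jak2 lie within 0.2 of 0.

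In lung, 1 of 8 tested probe sets of these genes, Cd274, passed limma at an adjusted p under 0.05, a call made for 0.0924% of all 21655 probe sets tested. At an unadjusted p under 0.05 there were 2 of 8 (Cd274 and Irf1), against 7.67% of all. The arrays of the diets did not overlap for the same 2 of 8, against 12.9% of the 20062 probe sets with a value on each lung array. In liver, 0 of 7 passed the adjusted test, which called 0.0121% of 16575. At an unadjusted p under 0.05 there were 3 of 7 (Irf1, Irf8 and Cxcl9), against 6.65% of all, and the diets did not overlap for 2 of the 6 probe sets with a value on each liver array (Irf8 and Cxcl9), against 12.2% of 14759. The methods' t-test, at an unadjusted p under 0.05, took 2 of 8 in lung (Cd274 and Irf1), against 6.52% of all, and 2 of 7 in liver (Irf8 and Cxcl9), against 5.94% of all, and none of these after Benjamini-Hochberg adjustment. Nothing is read from these counts, because the genes were selected on results of the same contrast. The call of Cd274 ended without 0.1 Se lung replicate 2 (1.22), without 0 Se lung replicate 2 (1.31) and without 0 Se lung replicate 3 (1.31), and also with no trend in the variance prior or with blanks set to the lowest value (1.32 each).

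An interaction term in a fit of the 12 arrays tested whether the diet difference itself differed between lung and liver, for the 6 probe sets with at least 2 values in each of the 4 groups. None of the 6 passed by limma, at an adjusted or an unadjusted p under 0.05, and among all 15112 probe sets tested 0% passed at the adjusted threshold and 6.16% at the unadjusted one. The largest value was that of Irf8 (-0.36 ± 0.18, lung minus liver difference, adjusted p = 0.814). For Irf1 it was -0.01 ± 0.23 (adjusted p = 0.996). Cd274, Cxcl9 and Cxcl10 could not enter this test, since each was blank on most arrays of a group, and a tissue-specific response of these 3 genes was therefore not tested.

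By level, the 6 probe sets of Ifngr1, Ifngr2, Jak2, Irf1 and Irf8 that could be compared were all higher in lung. The lung minus liver difference, averaged over the diets, was 2.65 ± 0.09 for Irf8 (6.29-fold, limma adjusted p = 2.66e-13), 2.07 ± 0.08 for Ifngr1 (4.21-fold, adjusted p = 1.66e-12) and 1.68 ± 0.11 for Irf1 (3.21-fold, adjusted p = 1.38e-09). It was 0.91 ± 0.08 for Jak2 1421066_at (1.88-fold, adjusted p = 2.52e-08), 1.08 ± 0.11 for Jak2 1421065_at (2.12-fold, 11 arrays, adjusted p = 2.51e-07) and 0.85 ± 0.12 for Ifngr2 (1.81-fold, adjusted p = 7.19e-06). All 6 passed, but 47.7% of the 15112 probe sets tested were also called higher in lung, with a median difference of 0.18 over all of them. Each array had been scaled on its own, and quantile normalization moved that median to 0.45. For each of these genes the order of the group means ran with both lung groups over both liver groups, and neighbours of the same tissue overlapped between diets except for Irf1 in lung and Irf8 (1416714_at) in liver. Cd274 had values on 6 lung arrays and on 2 liver arrays, while Cxcl9 had values on 3 lung arrays and on 6 liver arrays.

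The other genes of the pathway were taken from a list of 31, of which 19 could be tested in lung and 16 in liver. In lung 16 of 19 lay above 0, with a median of 0.11 against -0.01 over all probe sets, and 0 passed limma over all probe sets. At an unadjusted p under 0.05 there were 4 of 19, against 7.67% of all probe sets. In liver 15 of 16 lay above 0, with a median of 0.18 against 0 over all, and again 0 passed, with 2 of 16 at an unadjusted p under 0.05, against 6.65% of all. Ifng itself, Il12rb1, Il12rb2, Pdcd1, Pdcd1lg2 and Cd80 are not analysed here, so the cytokine is not among the values.

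The 2 largest lung differences on that list belonged to Ciita and Nlrc5, regulators of antigen presentation. Nlrc5, the transactivator of MHC class I genes, had 10.30, 10.58 and 10.12 in 0.1 Se lung, against 9.58, 9.00 and 9.43 in 0 Se lung, a difference of 1.00 ± 0.16 (adjusted p = 0.0747). Ciita, the transactivator of MHC class II genes, had 9.12, 9.18 and 8.79 in 0.1 Se lung, against 8.34, 7.13 and 8.02 in 0 Se lung (1.20 ± 0.27, adjusted p = 0.218). Neither gene passed the test. Irf9, a DNA-binding factor of the type I interferon response, had 10.28, 10.37 and 9.93 in 0.1 Se lung, against 9.62, 9.62 and 9.64 in 0 Se lung (0.57 ± 0.12, adjusted p = 0.204). Tbx21, the T-bet factor of interferon-γ-producing T and NK cells, had 8.34, 8.44 and 7.92 in 0.1 Se lung, against 7.68, 7.71 and 7.11 in 0 Se lung (0.74 ± 0.21, adjusted p = 0.38). The diets did not overlap for Nlrc5, Ciita, Irf9 or Tbx21. Such a split was found for 12.9% of the probe sets with a value on each lung array. These genes were named for the smallest lung p-values on the list. That choice favours such a split, so nothing is read from it.

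In liver the smallest p-values on the list belonged to Stat3 and Cxcr3. Stat3, the main factor downstream of interleukin-6, had 11.11, 11.61 and 11.38 in 0.1 Se liver, against 11.11, 10.72 and 10.99 in 0 Se liver (0.43 ± 0.15, adjusted p = 0.64). Cxcr3, the receptor of the CXCL9 and CXCL10 chemokines, had 7.44 and 7.60 on 2 arrays of 0.1 Se liver, against 6.68 and 6.96 on 2 arrays of 0 Se liver (0.70 ± 0.25, 4 arrays, adjusted p = 0.668). In lung the value of Cxcr3 was 0.04 ± 0.21. Stat2 (0.45 ± 0.22, adjusted p = 0.77) and Nlrc5 (0.37 ± 0.20, adjusted p = 0.798) came next in liver. Cxcl11, the third ligand of CXCR3, had 8.07, 8.51 and 8.50 in 0.1 Se liver, against 8.27 on 1 array of 0 Se liver, and was not tested. Jak1, the partner of JAK2 on the receptor, gave 0.20 ± 0.10 in lung and 0.02 ± 0.11 in liver.

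By tissue, 11 of the 16 listed genes tested in both were higher in lung, 3 were lower in lung (Stat2, Ptpn6 and Il18) and 2 did not pass, with a median of 0.59. Over all 15112 probe sets 47.7% were called higher and 33.9% lower in lung, with a median of 0.18. Icam1, an adhesion molecule of endothelium and leukocytes, had the highest lung minus liver value (4.54 ± 0.12, adjusted p = 3.25e-14). Il18, a cytokine that raises interferon-γ production, had one of the negative values (-0.67 ± 0.17, adjusted p = 0.00217).

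**Figure D4:**
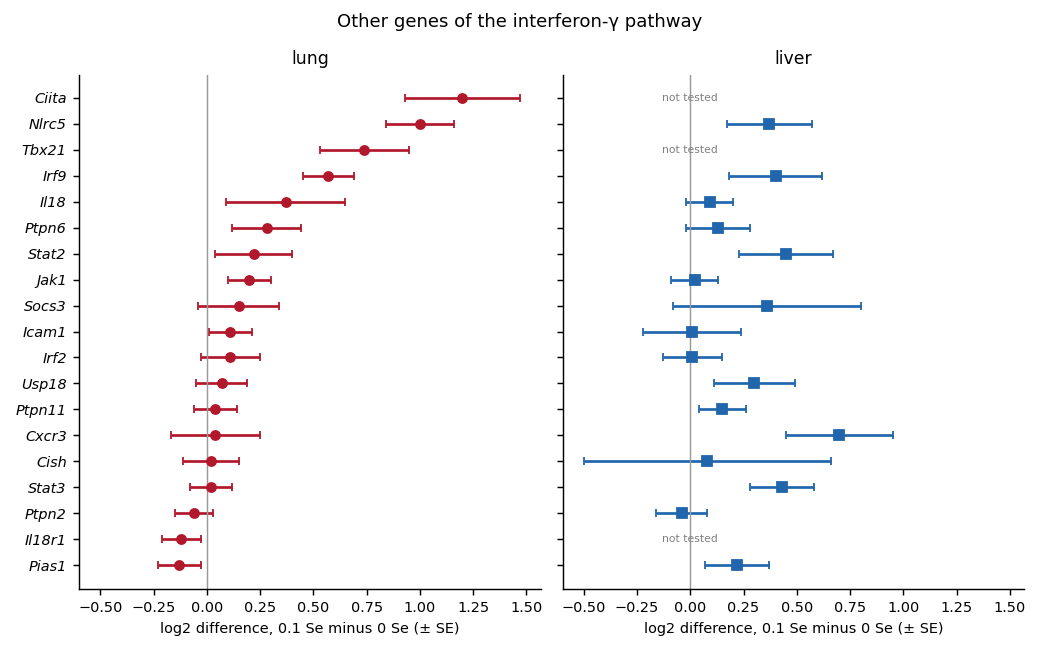
Log2 difference of 0.1 Se minus 0 Se with the SE of limma, for the other genes of the pathway in lung (left) and liver (right). Ciita (1.20) and Nlrc5 (1.00) lie farthest to the right in lung, Cxcr3 (0.70) in liver, and most of the remaining genes lie within 0.5 of 0.

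The summed signals of some cell type markers were also apart between the diets, and their part in the values above was not tested. In lung these were the T and NK cell and the neutrophil markers. In liver the summed signals of the macrophage markers were higher under 0.1 Se. Those of the endothelial markers were higher, and the signal of a dendritic cell marker was lower, by narrow margins. Of 12 T and NK cell markers 7 could be tested in lung, and 7 of 7 lay above 0 (median 0.82, 0 passed over all probe sets, 6 at an unadjusted p under 0.05 against 7.67% of all), among them the granzyme genes Gzma (1.06 ± 0.20) and Gzmb (1.16 ± 0.27). The smallest of the 7 was that of Cd3d, a T cell receptor subunit gene (0.39 ± 0.30), and Cd3e, another such gene, was blank on all lung arrays. The summed linear signal of the 7 was 4300 to 7640 in 0.1 Se lung, against 2370 to 3680 in 0 Se lung. Of 7 neutrophil markers 4 were tested, with 3 above 0 (median 1.36) and Mmp9 at -0.06 ± 0.28. Over all probe sets 0 passed, and 3 had an unadjusted p under 0.05, against 7.67% of all. The sums of the 4 were 17100, 4500 and 4470 in 0.1 Se lung, against 1380 to 3370 in 0 Se lung. The sums of both lists did not overlap between the diets, a split found for 12.9% of single probe sets in lung. Lung macrophage markers had 7 of 7 above 0 (median 0.26, sums of 11500 to 14300 under 0.1 Se, against 10900 to 11600 under 0 Se). Dendritic cell markers had 3 of 6 above 0 (median 0.02), B cell markers 0 of 2 (median -0.16), endothelial markers 2 of 6 (median -0.07) and alveolar and airway markers 2 of 8 (median -0.17).

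In liver 9 of 11 macrophage markers were tested and 9 of 9 lay above 0 (median 0.39, 0 passed over all probe sets, 5 at an unadjusted p under 0.05 against 6.65% of all). Marco, a scavenger receptor, gave 0.90 ± 0.20 and C1qc, a complement subunit, 0.61 ± 0.15. The sums of these markers were 22200 to 27500 in 0.1 Se liver, against 16100 to 21100 in 0 Se liver, and did not overlap, a split found for 12.2% of single probe sets in liver. Of the T and NK cell markers, Cd3d, Cd3e, Cd8b1, Ncr1 and Nkg7 were blank on the 6 liver arrays, and the 2 that could be tested had a median of 0.57. The dendritic cell markers Xcr1, Flt3, Itgae and Cd209a were blank on the liver arrays as well. Of the 2 that were tested, Batf3 gave 0.04 ± 0.27 and Zbtb46 -0.33 ± 0.20 (median -0.15), and neither passed. Zbtb46 had signals of 102 to 139 in 0.1 Se liver, against 140 to 167 in 0 Se liver. These did not overlap and lay near the lowest signal of the table (100). Hepatocyte markers had 6 of 7 above 0 (median 0.10), with sums of 350000 to 373000 in 0.1 Se liver, against 301000 to 382000 in 0 Se liver. Endothelial markers had 4 of 4 above 0 (median 0.09, 0 at an unadjusted p under 0.05 against 6.65% of all). Their sums, 2070 to 2390 in 0.1 Se liver and 2030 to 2050 in 0 Se liver, did not overlap either.

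The genes whose values ran most like those of each gene are given as a description, with Pearson's r over arrays that share the same diet groups and the same scaling. Over the 6 lung arrays, Cd274 ran closest to Gbp2, an interferon-induced GTPase (r = 0.996), Cenpj (0.990) and Stc1 (0.988), among 17418 probe sets compared. Over the 6 liver arrays, Cxcl9 ran closest to Rac1 (0.993), Tmsb4x (0.989) and Dhdds (0.987), among 13282. Over the 12 arrays, with the mean of each tissue taken off and 12074 probe sets compared, Irf1 ran closest to Gimap4 (0.951), Tapbp (0.938), which encodes the peptide-loading factor tapasin, and Samhd1 (0.926). Irf8 ran closest to Fam124a (0.907), the selenoprotein gene Selenoh (0.889) and Tm6sf1 (0.888). The highest r was with Atxn7 for Ifngr1 (0.908), with Mxi1 for Ifngr2 (0.935) and with Bclaf3 for Jak2 (0.889). Nothing is drawn from these values about function or control.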

How the data were processed

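Total RNA of 6 lungs and 6 livers had been labelled by 3′ IVT and hybridised to Affymetrix mouse expression arrays. The authors computed MAS5 signals, scaled each array independently and left out absent calls, in R 2.15.2 with affy 1.36.0 according to the submitters' processing notes. These signals were deposited on the log2 scale and used unchanged, and 0 columns were left without a sample. Genes were named from the platform annotation and RefSeq gene names.

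Probe sets with at least 2 values in each group were compared by limma 3.58.1 in R 4.3.3 (with the data.table package, version 1.17.8), with lmFit and eBayes (trend), per tissue for diet and over 12 arrays for tissue and interaction. Two-sided p-values were adjusted by Benjamini-Hochberg over all tested probe sets (threshold 0.05). The scripts were tested on simulated data. The number of arrays limits precision, and the smallest two-sided p of an exact test of 3 against 3 is 0.1.

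The genes and lists were chosen with earlier results of these data known. All their probe sets are named, with at most 4 other pathway genes per tissue, by smallest p, and Jak1, Cxcr3 in lung, Cxcl11, Icam1, Il18 and some markers, chosen after their values were seen. A listed gene stands with its probe set of highest mean signal. In no comparison did each same-numbered pair of arrays deviate together with r over 0.1 (r from -0.19 to 0.15 between diets, and between lung and liver from -0.04 to 0.02 in 0.1 Se and 0.06 to 0.11 in 0 Se, where unlike numbers gave -0.09 to -0.01), so the numbers were not taken as pairs. Alternatives covered the filter, normalization, log2 of the signal plus 32, eBayes settings, the replicate number as a block, 1 fit of 12 arrays, the methods' t-test and leaving out each array. The block joined arrays of the same number across both diets, so a pairing of lung with liver by mouse was not fitted.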

Additional observations from a re-analysis of the deposited data

How the results depend on the processing

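The count of adjusted calls among these genes was 1 in lung. It was 0 with blanks at the lowest value, with no trend and with the methods' t-test after adjustment, 2 with that t-test unadjusted, and 0 to 1 when an array was left out (0 without 0.1 Se lung replicate 2, 0 Se lung replicate 2 or 0 Se lung replicate 3). The lung difference of Cd274 stayed above 0, from 1.22 to 1.49. In liver the count was 0, and 2 with the unadjusted t-test. The interaction count was 0 under each alternative. The tissue count, 6, was 5 with values required on every array, 9 with blanks at the lowest value, and 5 to 6 when an array was left out (5 without 0.1 Se liver replicate 2 or 3). With the replicate block, Cd274 gave 1.32 and no call changed.

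The sign turned in 24 alternative values, all of differences smaller than their SE. The Irf1 interaction was 0.03 with quantile normalization, the Jak2 (1421065_at) interaction -0.03 with the replicate block and its liver difference -0.41 with blanks at the lowest value, where a blank 0.1 Se array took that value. With an array left out, interactions ran from -0.02 to 0.20 for Ifngr1, -0.12 to 0.18 for Ifngr2, -0.18 to 0.16 for Irf1, -0.07 to 0.08 for Jak2 (1421065_at) and 0.00 to 0.15 for Jak2 (1421066_at). Liver differences ran from -0.10 to 0.12 for Ifngr1 and -0.03 to 0.28 for Ifngr2, and the lung difference of Jak2 (1421066_at) from -0.09 to 0.04. The causes were not tested.

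Blanks limit Cxcl10, Socs1, Cxcl9 in lung and Cd274 in liver, where too few arrays listed a value for a test.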
